A study of Equus caballus with 68 samples.

Results

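The insulin-like growth factor (IGF) axis was followed in equine bone marrow mononuclear cells (BMNC) that were cultured in normal synovial fluid (SF) or in inflamed synovial fluid (ISF). The axis was taken as 10 genes, found by symbol among the 30371 entries of the expression table: the ligands IGF1 and IGF2, the receptors IGF1R and IGF2R, and the binding proteins IGFBP2, IGFBP3, IGFBP4, IGFBP5, IGFBP6 and IGFBP7. All 10 were listed, and 7 passed the limit on low values. The set was chosen by the level of IGF1, which was known to be lower in ISF than in SF at the 4 times in culture. The difference of IGF1 between the fluids is therefore given as a description with no test, while its change over time and the differences of the other genes were tested.

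IGF1 and IGF2 are small secreted peptides related to insulin. IGF1R is the tyrosine kinase receptor through which both act on growth, survival and matrix synthesis, whereas IGF2R, which also carries lysosomal enzymes, takes IGF2 up without a kinase of its own. The IGF binding proteins hold the ligands outside the cell and are cleaved to release them. In the joint, IGF1 is known as a stimulus of cartilage matrix synthesis, and macrophages are among the cells that make it.

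The BMNC came from sternal bone marrow of 8 adult Thoroughbred horses, 2 females and 6 geldings aged 3 to 9 years, and the cells of each horse were kept apart in their own undiluted fluid. SF was drawn from healthy middle carpal joints, and ISF from radiocarpal joints of the same horses in which synovitis had been induced. The site of the joint and the inflammation cannot be told apart by this design. RNA was sequenced from uncultured BMNC at 0 hours (n = 8) and from cells in SF and in ISF at 48 hours (n = 7 per fluid, without Moon), 96 hours (n = 8), 6 days (n = 8) and 10 days (n = 7, without Flash), with 1 well per horse, fluid and time. Horses are called here by the names in the labels.

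The 68 libraries held between 15.7 and 36 M reads assigned to genes (median 22.3 M). Levels are in GeTMM, which count reads per kilobase and carry a scaling for each library, so they can be compared between genes as well as between libraries. A read on a gene of 1 kilobase was worth 0.0337 to 0.0979 GeTMM, and levels near this rest on single reads. In 66 of 68 libraries the pattern over all genes was most like that of the other libraries of the same horse. The ISF libraries labelled Dealings and Dreamer at 96 hours were each most like the other horse of the pair, so the differences at 96 hours that are named below are also given with both of them left out. The fit behind the calls leaves horse out, so an exchange of these labels within the group would not change its estimates. It could change the fits that use horse and the counts of horses that involve 96 hours. Leaving both libraries out also makes the group smaller. Of all genes tested, 1524 were called between the fluids at 96 hours with these libraries and 901 without them.

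The cells were checked against marker genes. The mean log2(GeTMM + 1) of 7 macrophage genes (CD68, CD163, MRC1, GPNMB, SPP1, TREM2, MSR1) was 3.98 ± 0.298 (SD, n = 8) at 0 hours, 10.6 ± 0.109 (n = 7) in SF and 11.0 ± 0.271 (n = 7) in ISF at 10 days, with none of the 7 genes at 0 in a group. For 5 T cell genes (CD3D, CD3E, CD3G, CD2, LCK) the mean was 5.29 ± 0.414 (SD, n = 8) at 0 hours, 4.09 ± 1.02 (n = 7) in SF and 1.4 ± 0.390 (n = 7) in ISF at 10 days. Summed over the 5 genes, the T cell level was 23.5 to 199 GeTMM in SF and 4.33 to 14.8 GeTMM in ISF at that time. At 6 days the T cell mean was 4.40 ± 0.945 in SF and 2.59 ± 0.635 in ISF (n = 8 each), lower in ISF in 8 of 8 horses.

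At the same time 8 neutrophil precursor genes (MPO, ELANE, PRTN3, AZU1, CAMP, LTF, OLFM4, CEBPE), 6 of them listed above 0, had a mean of 7.07 ± 1.63 in SF and 4.48 ± 2.38 in ISF (SD of log2(GeTMM + 1), n = 8 each). This was lower in ISF in 8 of 8 horses, with summed levels of 89.4 to 4799 GeTMM in SF and 2.76 to 2393 in ISF. The lists of erythroid and megakaryocyte genes were also lower in 8 of 8 horses then, that of cell cycle genes was higher in 8 of 8, and that of macrophage genes in 7 of 8. The fluids thus differed in the RNA of several cell types as well as in the IGF genes, and the part of this in the results below was not tested. In RNA from a whole well, fewer cells of a type and less RNA per cell cannot be told apart.

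IGF1 RNA was nearly absent from uncultured cells, appeared in SF within 48 hours and stayed low in ISF. The levels are relative to the RNA of each library, and no protein was measured here. From an earlier study of the same horses, the paper states that the IGF1 gene was more highly expressed in SF. The concentration of IGF-1 was nevertheless higher in ISF, which the paper attributes to higher macrophage counts there. This was not tested here. At 0 hours the level of IGF1 RNA was 0 to 1.13 GeTMM, with a median of 0.512 (n = 8), which corresponds to 0 to 19 reads. In SF the lowest, median and highest levels were 1.7, 25.0 and 44.9 GeTMM after 48 hours, 1.35, 22.7 and 94.2 after 96 hours, 2.99, 31.2 and 208 after 6 days, and 4.19, 22.6 and 75.2 after 10 days. In ISF they were 0, 1.48 and 3.82 GeTMM after 48 hours, 0.237, 2.80 and 8.49 after 96 hours, 0.497, 3.31 and 17.0 after 6 days, and 0.479, 2.01 and 10.0 after 10 days. The groups overlapped at each time.

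Within horses, IGF1 was lower in ISF in 7 of 7 horses at 48 hours, 7 of 8 at 96 hours, 7 of 8 at 6 days and 7 of 7 at 10 days. Without Dealings and Dreamer it was lower in 5 of 6 horses at 96 hours. Moon was the exception at both middle times, with 1.35 GeTMM in SF and 2.06 in ISF at 96 hours, and 2.99 and 3.92 at 6 days. The mean level in SF was 13.2, 7.78, 9.49 and 8.72 times that in ISF at 48 hours, 96 hours, 6 days and 10 days. On the log2(GeTMM + 1) scale, which understates changes of low levels, the differences were -2.89, -2.19, -2.47 and -2.67, and with the Dealings and Dreamer ISF libraries left out the value at 96 hours was -2.54. Horses differed widely: at 6 days in SF, Flash reached 208 GeTMM, whereas RimRun had 5.71.

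**Figure D1:**
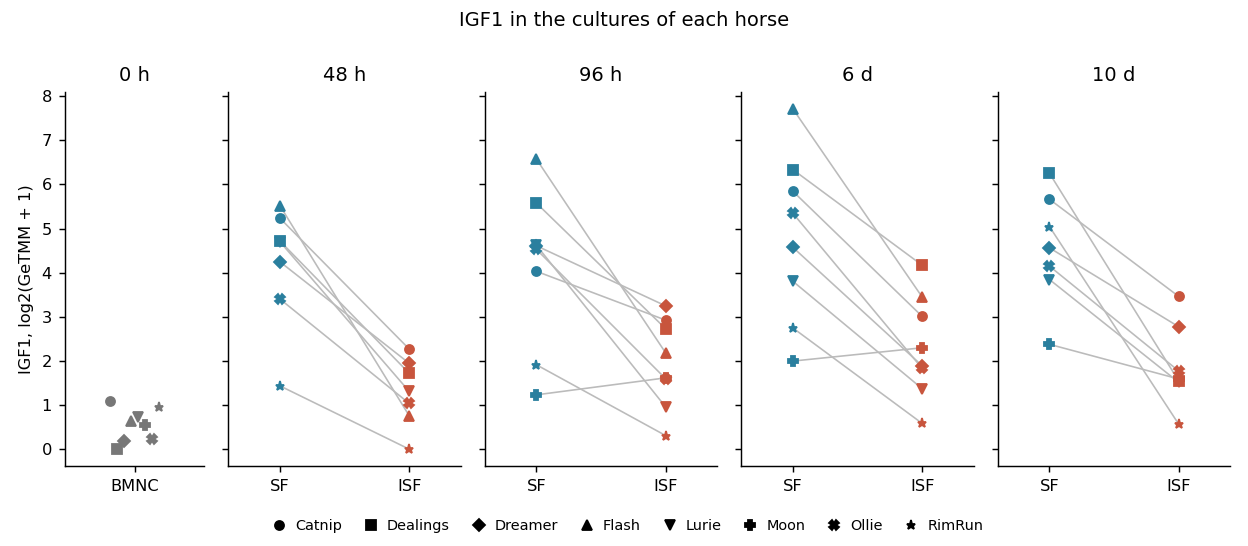
IGF1 level, as log2(GeTMM + 1), in uncultured BMNC and in the SF and ISF cultures of each horse at 4 times; each symbol is 1 library and lines join the cultures of a horse. The lines fall from SF to ISF in every horse except Moon at 96 hours (1.35 to 2.06 GeTMM) and 6 days (2.99 to 3.92 GeTMM).

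Over time, IGF1 rose from 0 to 48 hours in SF by 3.64 ± 0.64 (log2 fold change ± SE; limma, FDR = 3.22e-06), in 7 of 7 horses. In ISF the change over the same interval was 0.75 ± 0.64 (limma, FDR = 0.34), upward in 6 of 7 horses, and it passed the threshold only when these groups were fitted alone (FDR = 0.0322, with a range of 0.0322 to 0.536 over the alternatives). The 48-hour levels in both changes are among the values that chose the genes, so these FDR values are not independent of that choice. The difference between both changes equals the difference between the fluids at 48 hours, and it was not tested. None of the 3 later intervals passed the test for IGF1 in either fluid: the changes lay between -0.24 and 0.66 in SF and between -0.44 and 0.65 in ISF. The levels at both ends of these intervals are also among the values that chose the genes. These tests are therefore not independent of that choice either. By mean level the groups ran in the order SF at 6 days (53.6 GeTMM), 10 days (30.5), 96 hours (28.7) and 48 hours (23.0), then ISF at 6 days (5.64), 96 hours (3.69), 10 days (3.5) and 48 hours (1.74), and last the uncultured cells (0.504). The ranges of neighbours in this order overlapped throughout.

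IGF2, the fetal growth ligand, was not above 0.457 GeTMM in any library and did not pass the limit on low values. Its median was 0.283 GeTMM at 0 hours, 0.139 and 0.0626 in SF and ISF at 48 hours, 0.166 and 0.0151 at 6 days, and 0.042 and 0 at 10 days. These levels rest on 0 to 42 reads per library, and 5 of 7 ISF libraries had no IGF2 read at 10 days. The fit with this limit gave no test of IGF2. With no limit on low values it was called lower in ISF at 6 days, by -0.20 ± 0.05 (log2 fold change ± SE; limma, FDR = 0.00336), in 8 of 8 horses. In the same fit IGF2 fell from 0 to 48 hours by -0.24 ± 0.05 in ISF (limma, FDR = 0.000309) and by -0.17 ± 0.05 in SF (FDR = 0.0143), and it was not called between the fluids at 48 hours (FDR = 0.767), 96 hours (0.626) or 10 days (0.31).

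Among the receptors, IGF1R fell on entry into culture in both fluids and was lower in ISF than in SF at 6 and 10 days. At 0 hours its lowest, median and highest levels were 10.8, 20.1 and 24.5 GeTMM (n = 8). At 48 hours they were 7.23, 10.1 and 12.8 GeTMM in SF and 8.01, 8.93 and 12.7 in ISF (n = 7 each). The fall was -0.81 ± 0.19 in SF (log2 fold change ± SE; limma, FDR = 0.000355), in 6 of 7 horses, and -0.91 ± 0.19 in ISF (FDR = 5.46e-05), in 7 of 7 horses. From 0 to 48 hours 45.4% of all genes tested were called in SF and 52.7% in ISF. In SF IGF1 and IGF1R were called among the 7 IGF genes, and in ISF IGF1R and IGFBP6, so the counts of 2 of 7 were below these shares. The level of IGF1 at 48 hours, which enters both counts, was among the values that chose the genes.

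Between the fluids, IGF1R did not pass the test at 48 hours, where the difference was -0.10 with a 95% interval of -0.49 to 0.29 (limma, FDR = 0.89). At 96 hours it was -0.44 ± 0.18 (FDR = 0.121), lower in ISF in 7 of 8 horses, and it was called only with library weights (FDR = 0.0343, range 0.0343 to 0.322 over the alternatives). With the Dealings and Dreamer ISF libraries left out, the IGF1R difference at 96 hours was -0.36 (FDR = 0.322), and it was lower in 5 of 6 horses. At 6 days the levels were 6.63 to 14.9 GeTMM in SF, with a median of 12.0, and 2.53 to 9.96 in ISF, with a median of 6.45. IGF1R was lower in ISF in 8 of 8 horses, by -0.92 ± 0.18 (limma, FDR = 8.47e-05), although the groups overlapped. At 10 days the levels were 7.69 to 13.5 GeTMM in SF and 2.90 to 9.04 in ISF, lower in 6 of 7 horses, with Ollie as the exception (8.0 and 8.58). The difference was -0.63 ± 0.20 (limma, FDR = 0.0166), and its call was lost without Catnip (FDR = 0.061), Dealings (0.0859) or Dreamer (0.0519), in a range of 0.00747 to 0.0859 over the alternatives.

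IGF2R had the higher level of both receptors per kilobase in every library. Its lowest, median and highest levels were 79.1, 90.6 and 124 GeTMM at 0 hours, and no interval passed the test in SF. In ISF it went from 73.4, 99.8 and 143 GeTMM at 48 hours to 30.2, 53.9 and 106 at 96 hours, 8.23, 44.9 and 95.2 at 6 days, and 33.5, 61.1 and 170 at 10 days. The change from 48 to 96 hours was -0.80 ± 0.32 (log2 fold change ± SE; limma, FDR = 0.0668) and was called with horse as a replicate block (-0.79, FDR = 0.0338). The change from 6 to 10 days was 0.87 ± 0.32 (limma, FDR = 0.0647) and was likewise called with the block (0.83, FDR = 0.0369). Without the Dealings and Dreamer ISF libraries the IGF2R change from 48 to 96 hours was -0.74 (FDR = 0.157). Over the alternatives the FDR of these IGF2R changes ranged from 0.00855 to 0.191 and from 0.0184 to 0.291.

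IGF2R was lower in ISF at 6 days by -0.94 ± 0.30 (log2 fold change ± SE; limma, FDR = 0.0145), in 6 of 8 horses. The SF libraries held 20.7 to 115 GeTMM, with a median of 77.3, and the lowest of them was that of Moon, 1 of the 2 horses with more IGF2R in ISF (20.7 in SF and 60 in ISF). Without the SF library of Moon the difference was -1.18 (FDR = 0.00126). The call was lost when the groups were fitted alone (FDR = 0.175) and without Catnip (0.099), Dealings (0.0952) or Dreamer (0.0688), in a range of 0.000897 to 0.175. At 96 hours and 10 days the differences were -0.59 (limma, 95% interval -1.20 to 0.02, FDR = 0.225) and -0.42 (-1.07 to 0.23, FDR = 0.391). The IGF2R difference at 96 hours was -0.54 (FDR = 0.393) with the Dealings and Dreamer ISF libraries left out. In Ollie and RimRun IGF2R was higher in ISF at 10 days, at 134 and 170 GeTMM compared with 88.5 and 88.6 in SF.

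The level of IGF2R was 4.33 to 7.32 times that of IGF1R at 0 hours, with a median of 4.79. At 48 hours the ratio was 6.13 to 15.8 in SF, with a median of 10.5, and 6.40 to 16.2 in ISF, with a median of 11.2. At 6 days its medians were 6.73 in SF and 6.43 in ISF. The ratio is given as a description and was not tested.

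**Figure D2:**
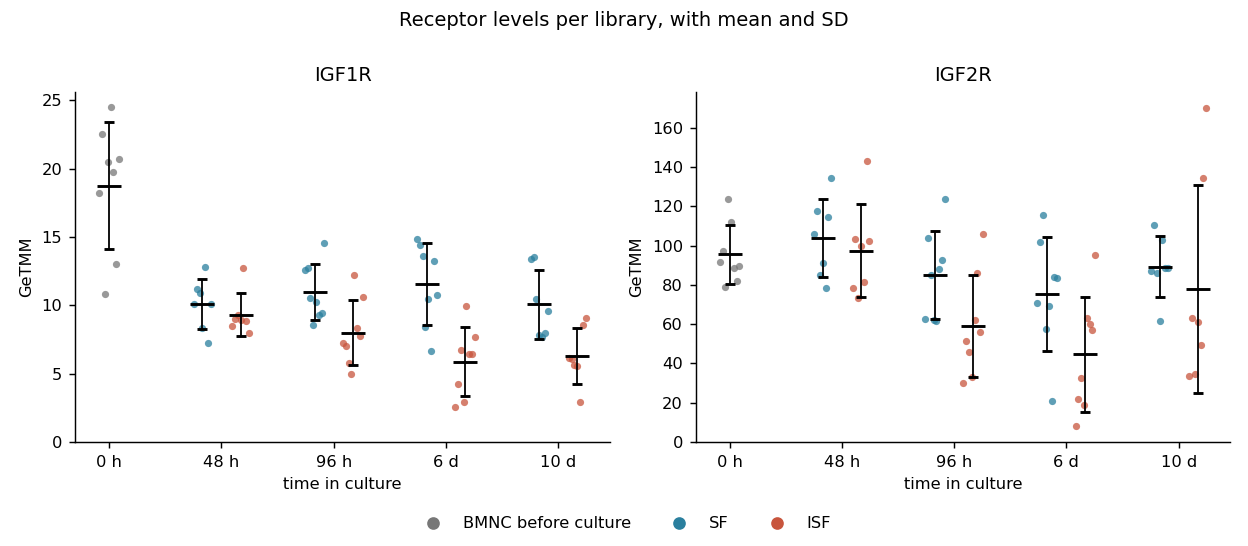
Levels of IGF1R and IGF2R in GeTMM by time in culture; points are libraries, and black bars give the mean and SD of each group. IGF1R goes from a mean of 18.8 GeTMM at 0 hours to 10.1 in SF and 9.32 in ISF at 48 hours, and at 6 days to 11.6 in SF and 5.87 in ISF, while IGF2R spreads most widely in ISF at 10 days (33.5 to 170 GeTMM).

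The binding proteins were dominated by IGFBP4 at the start and by IGFBP4 together with IGFBP6 at the end. Summed over the 6 binding proteins, the level was 10.9 to 32.4 GeTMM at 0 hours, 137 to 429 in SF and 238 to 660 in ISF at 10 days. IGFBP4 made up 89.3 to 97.1% of this sum at 0 hours, 61.1 to 89.2% in SF at 10 days, and 33.1 to 91.4% in ISF, with a median of 44.0%. The share of IGFBP6 was 0 to 6.11% at 0 hours and had medians of 23.3% in SF and 49.1% in ISF at 10 days. IGFBP6 exceeded IGFBP4 in 4 of 7 ISF libraries at 10 days, those of Dealings, Lurie, Ollie and RimRun, and in no library of the other groups.

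IGFBP6, a binding protein known for its preference for IGF2 over IGF1, rose over each interval in ISF and was higher in ISF than in SF from 96 hours on. At 0 hours it was at 0 to 1.54 GeTMM, with a median of 0.560 (n = 8), or 0 to 18 reads. In ISF the lowest, median and highest levels were 1.15, 1.87 and 6.63 GeTMM after 48 hours, 3.38, 9.49 and 29.7 after 96 hours, 5.65, 48.8 and 102 after 6 days, and 53.1, 185 and 239 after 10 days. In SF they were 0.391, 0.829 and 4.50 GeTMM after 48 hours, 0.863, 4.62 and 6.54 after 96 hours, 6.57, 11.4 and 60.9 after 6 days, and 20.4, 38.1 and 99.7 after 10 days. The mean level at 10 days was 235 times that at 0 hours in ISF and 81.6 times in SF, higher in 7 of 7 horses in each fluid.

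Over the 4 intervals in ISF, IGFBP6 rose by 1.12 ± 0.46, 1.79 ± 0.46, 1.54 ± 0.44 and 2.02 ± 0.46 (log2 fold change ± SE; limma, FDR = 0.0329, 0.00288, 0.0229 and 0.00141). From 48 to 96 hours and from 6 to 10 days it was higher at the later time in 7 of 7 horses. In SF it rose from 96 hours to 6 days by 1.79 ± 0.44 (limma, FDR = 0.0144), in 8 of 8 horses, and from 6 to 10 days by 1.71 ± 0.46 (FDR = 0.0211), in 6 of 7 horses. The exception was Moon, whose SF library at 6 days held 60.9 GeTMM against 6.57 to 16.3 in the other horses. Without that library the rise from 96 hours to 6 days was 1.49 (FDR = 0.0651, range 0.00207 to 0.156), and its call was also lost without the horse Moon (0.156) or RimRun (0.0674), with the groups fitted alone (0.0666) and by voom on recovered reads (2.01, FDR = 0.132). Without the SF library of Lurie at 10 days the rise of IGFBP6 from 6 to 10 days was 1.53 (FDR = 0.0522, range 0.00381 to 0.155), and its call was also lost without the horse Dreamer (0.0514), Lurie (0.0879) or Ollie (0.104) and with the groups fitted alone (0.155). The change in SF from 48 to 96 hours was 1.01 ± 0.46 (limma, FDR = 0.0911) and was called with horse as a replicate block (1.01, FDR = 0.0446, range 0.0121 to 0.252).

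The calls of IGFBP6 over time in ISF also depended on single horses and on the settings of the fit. The rise from 0 to 48 hours was lost without Catnip (FDR = 0.0731), Lurie (0.104) or Ollie (0.0837) and by voom on recovered reads, where the change was 2.31 (FDR = 0.0687), in a range of 0.00162 to 0.104. That from 96 hours to 6 days was lost without Dreamer (FDR = 0.146), Ollie (0.0652) or RimRun (0.127), with a pseudocount of 0.1 (0.057) and with the groups fitted alone (0.122), in a range of 0.00341 to 0.146. With the Dealings and Dreamer ISF libraries left out, the changes of IGFBP6 from 48 to 96 hours and from there to 6 days were 1.73 (FDR = 0.0107) and 1.59 (FDR = 0.0281). Each of the rises kept its direction in every alternative, and those from 48 to 96 hours and from 6 to 10 days kept their calls as well.

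Compared with SF, IGFBP6 in ISF differed by 0.72 ± 0.47 at 48 hours (log2 fold change ± SE; limma, 95% interval -0.22 to 1.66, FDR = 0.516), higher in 6 of 7 horses. At 96 hours it was higher by 1.49 ± 0.44 (FDR = 0.0191), in 8 of 8 horses. At 6 days it was higher by 1.24 ± 0.44 (FDR = 0.0253), in 6 of 8 horses, with Flash (12.9 in SF and 5.65 in ISF) and Moon (60.9 and 28.2) as the exceptions. At 10 days it was higher by 1.56 ± 0.47 (FDR = 0.0122), in 7 of 7 horses. The groups overlapped at each time.

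With the Dealings and Dreamer ISF libraries left out, the difference of IGFBP6 at 96 hours was 1.44 (limma, FDR = 0.0548), upward in 6 of 6 horses. The call at 96 hours was also lost without Dealings (0.0672), Lurie (0.063) or RimRun (0.0503) and by voom on recovered reads (1.82, FDR = 0.0883), in a range of 0.00136 to 0.0883, and that at 10 days without Dealings (0.104), in a range of 0.00233 to 0.104. At 6 days the call was lost without Dreamer (0.0973), Lurie (0.0883), Ollie (0.101) or RimRun (0.116), when the groups were fitted alone (0.159) and with a pseudocount of 0.1 (0.0606), in a range of 0.000703 to 0.159. The direction was upward in all of these.

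IGFBP4, which restrains IGF1 until it is cleaved, had its highest levels in ISF. Its lowest, median and highest levels were 10.1, 18.1 and 29.0 GeTMM at 0 hours (n = 8). In SF they were 9.86, 31.6 and 126 GeTMM after 48 hours, 10.9, 66.0 and 306 after 96 hours, 56.9, 123 and 375 after 6 days, and 98.5, 191 and 262 after 10 days. In ISF they were 4.37, 35.1 and 131 GeTMM after 48 hours, 15.8, 242 and 619 after 96 hours, 77.7, 407 and 913 after 6 days, and 99.4, 173 and 603 after 10 days. At 6 days the ISF libraries of Catnip, Dealings, Dreamer and Flash held 913, 785, 621 and 698 GeTMM, and those of Lurie, Moon, Ollie and RimRun held 77.7, 125, 194 and 87.9.

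In ISF IGFBP4 rose from 48 to 96 hours by 2.29 ± 0.65 (log2 fold change ± SE; limma, FDR = 0.0078), in 7 of 7 horses. With the Dealings and Dreamer ISF libraries at 96 hours left out, the change was 1.78 (FDR = 0.0747), and with these groups fitted alone the FDR was 0.06, in a range of 0.000118 to 0.0747. Between the fluids IGFBP4 differed by 1.37 ± 0.63 at 96 hours (limma, FDR = 0.158) and by 1.23 ± 0.63 at 6 days (FDR = 0.134), higher in ISF in 7 of 8 horses each time. With horse as a replicate block both were called (FDR = 0.0329 and 0.0322), and over the alternatives the FDR ranged from 0.0329 to 0.522 and from 0.0322 to 0.321. With the Dealings and Dreamer ISF libraries left out, the difference at 96 hours was 0.87 (FDR = 0.522), upward in 5 of 6 horses. At 48 hours and 10 days the differences were 0.11 (95% interval -1.23 to 1.45) and 0.21 (-1.13 to 1.55).

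**Figure D3:**
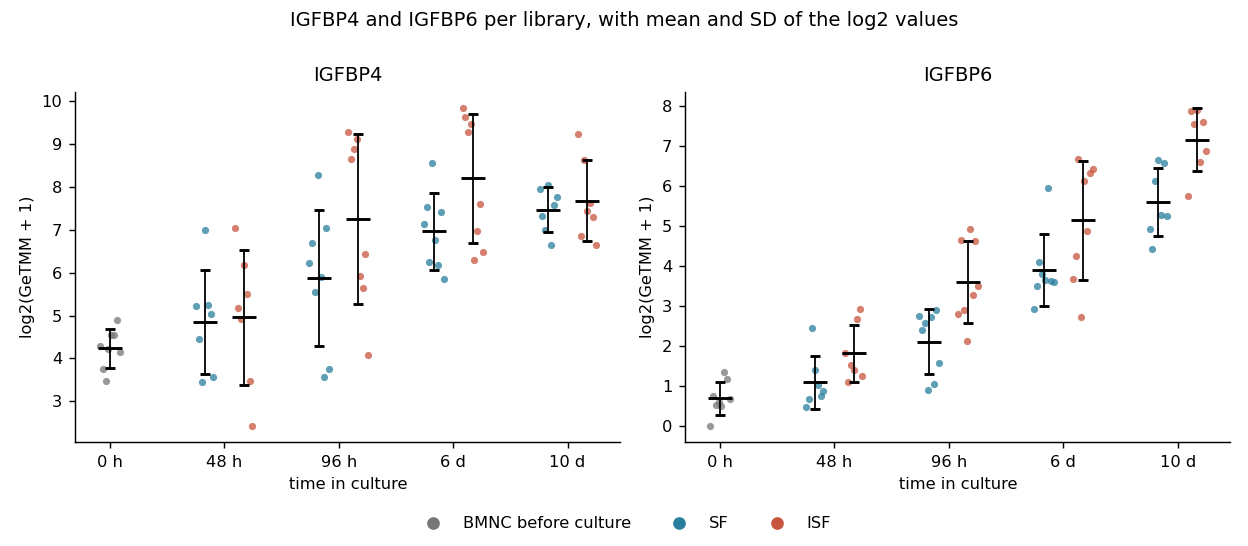
Levels of IGFBP4 and IGFBP6 as log2(GeTMM + 1) by time in culture; points are libraries, and black bars give the mean and SD of the log2 values. IGFBP6 climbs in both fluids and its mean is higher in ISF at each time in culture, while IGFBP4 in ISF ranges from 77.7 to 913 GeTMM at 6 days.

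IGFBP2, IGFBP5 and IGFBP7 stayed low in most libraries, and their highest levels came late and in few horses. IGFBP2 was at 0.0631 to 0.98 GeTMM at 0 hours and at most 0.152 GeTMM at 48 and 96 hours in either fluid. At 10 days it was 0.154 to 21.5 GeTMM in ISF, with a median of 0.788, led by RimRun (21.5), Ollie (4.52) and Catnip (3.33). In SF at 10 days it was 0 to 52.8 GeTMM, with a median of 0.164, where Lurie had 52.8 and Dreamer, the next, 2.17.

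IGFBP2 rose in ISF from 6 to 10 days by 1.35 ± 0.43 (log2 fold change ± SE; limma, FDR = 0.03), in 7 of 7 horses. The call was lost without Catnip (FDR = 0.0845), Dreamer (0.0527), Ollie (0.134) or RimRun (0.266) and with the groups fitted alone (0.114), in a range of 0.000639 to 0.266. The difference between the fluids at 10 days was 0.47 ± 0.44 (limma, FDR = 0.508). Without the SF library of Lurie it was 1.23 (FDR = 0.00237), and over the alternatives it ran from -0.17 to 2.59 (FDR = 0.00215 to 0.892). From 0 to 48 hours the mean went from 0.366 GeTMM to 0.0216 in SF and 0.0149 in ISF, downward in 7 of 7 horses in each fluid. This did not pass the test at a pseudocount of 1 (-0.40, FDR = 0.476, and -0.41, FDR = 0.447) and passed it at 0.1 (-1.77, FDR = 0.0443, and -1.85, FDR = 0.0303), with ranges over the alternatives of 0.00311 to 0.635 and 0.00223 to 0.605.

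IGFBP7, a protein of the family with weak binding to IGFs, was lower in ISF at 10 days by -0.53 ± 0.19 (log2 fold change ± SE; limma, FDR = 0.033), in 6 of 7 horses. Its levels were 0.0477 to 3.52 GeTMM in SF, with a median of 0.322, and 0 to 0.6 in ISF, with a median of 0.171, which is 1 to 69 and 0 to 10 reads. The call was lost without Dreamer (-0.27, FDR = 0.329), Lurie (0.162) or RimRun (0.0874), with the groups fitted alone (0.215) with a pseudocount of 0.1 (0.125) and by voom on recovered reads (-1.44, FDR = 0.184), in a range of 0.00418 to 0.329. Without the SF library of Lurie alone the difference was -0.39 (FDR = 0.131).

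IGFBP5 and IGFBP3 did not pass the limit on low values, and without it neither was called between the fluids or over an interval (lowest FDR = 0.0794, for IGFBP5 between the fluids at 10 days). IGFBP5 was at 0.165 to 0.578 GeTMM in the 8 uncultured samples, and no read of it was found in any of the 23 ISF libraries from 96 hours on, where 0 reads allow up to 0.0647 to 0.112 GeTMM (3 reads per library, counting error only). In SF it was above 0 in 3 of 8 libraries at 6 days and in 2 of 7 at 10 days, Lurie (11.8 GeTMM) and Dealings (0.58). IGFBP3, the main carrier of IGFs in blood, was at most 0.231 GeTMM in every library except the SF library of Lurie at 6 days, where it was at 2.19 GeTMM.

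The SF library of Lurie at 10 days, which held the most IGFBP2 and IGFBP5, also held the most RNA of 6 fibroblast or stromal genes (COL1A1, COL1A2, COL3A1, DCN, LUM, PDGFRB). Summed, these 6 genes were at 4060 GeTMM in that library, 522 in Dreamer, 125 in Dealings, 28.0 in RimRun, 4.87 in Ollie, 2.92 in Catnip and 0.424 in Moon. In ISF at 10 days the sum was 0.165 to 2.02 GeTMM in 6 libraries and 49.7 in Moon, and none of the 6 genes was at 0 in all libraries of either group. Dreamer and Lurie in SF had the highest IGFBP7 (3.52 and 2.10 GeTMM), and in ISF the highest was Moon (0.6). The IGFBP2 of RimRun in ISF (21.5 GeTMM) stood beside a stromal sum of 0.695 GeTMM. The part of stromal cells in these binding proteins was not tested.

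**Figure D4:**
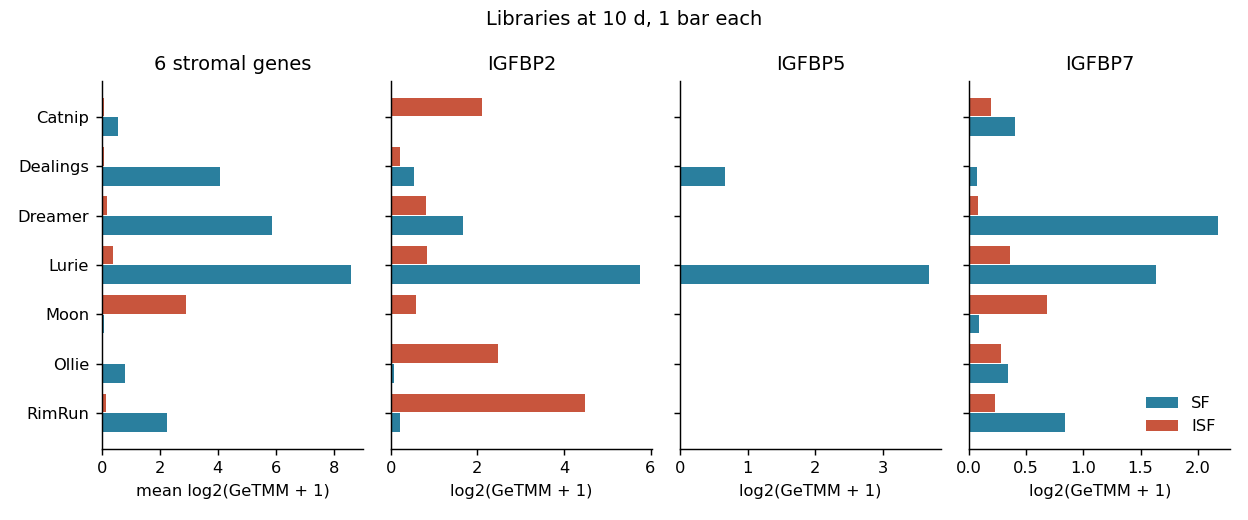
Mean log2(GeTMM + 1) of 6 stromal genes and log2(GeTMM + 1) of IGFBP2, IGFBP5 and IGFBP7 in the SF and ISF library of each horse at 10 days, 1 bar per library; scales differ between panels. The SF library of Lurie leads for the stromal genes, IGFBP2 (52.8 GeTMM) and IGFBP5 (11.8 GeTMM), and that of Dreamer for IGFBP7 (3.52 GeTMM).

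Counted over the 6 IGF genes tested beside IGF1, none was called between the fluids at 48 hours by limma, where 1.68% of all genes were called, and none had an unadjusted p below 0.05. At 96 hours 1 was called (IGFBP6), against 10.5% of all genes. At 6 days 3 were called (IGF1R and IGF2R lower, IGFBP6 higher in ISF), against 30.2%, and at 10 days 3 (IGF1R and IGFBP7 lower, IGFBP6 higher), against 20.8%. The median log2 fold change of the 6 was -0.05, 0.06, -0.12 and -0.11 at the 4 times, beside -0.02, 0.00, 0.00 and -0.02 over all genes tested. IGF1 is not counted here, since its difference chose the genes.

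Over the later intervals, 2 of the 7 genes were called in ISF from 48 to 96 hours (IGFBP4 and IGFBP6), against 19.0% of all genes, 1 from 96 hours to 6 days (IGFBP6), against 6.38%, and 2 from 6 to 10 days (IGFBP2 and IGFBP6), against 10.5%. IGF1 is among the 7 and was not called, and its levels in culture are among the values that chose the genes. In SF none was called by limma from 48 to 96 hours, against 27.3%, where IGFBP6 had an unadjusted p below 0.05 and was called by some alternatives. In the SF intervals that end at 6 and at 10 days IGFBP6 was the 1 gene called, against 2.05% and 4.78%. An interaction term tested, for 6 genes, a change of the ISF-to-SF difference between 48 hours and 10 days, and none was called (limma, no unadjusted p below 0.05), against 2.99% of all genes. For IGF1R this change was -0.53 ± 0.28 (FDR = 0.342), and for IGF2R -0.32 ± 0.46 (FDR = 0.814).

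**Figure D5:**
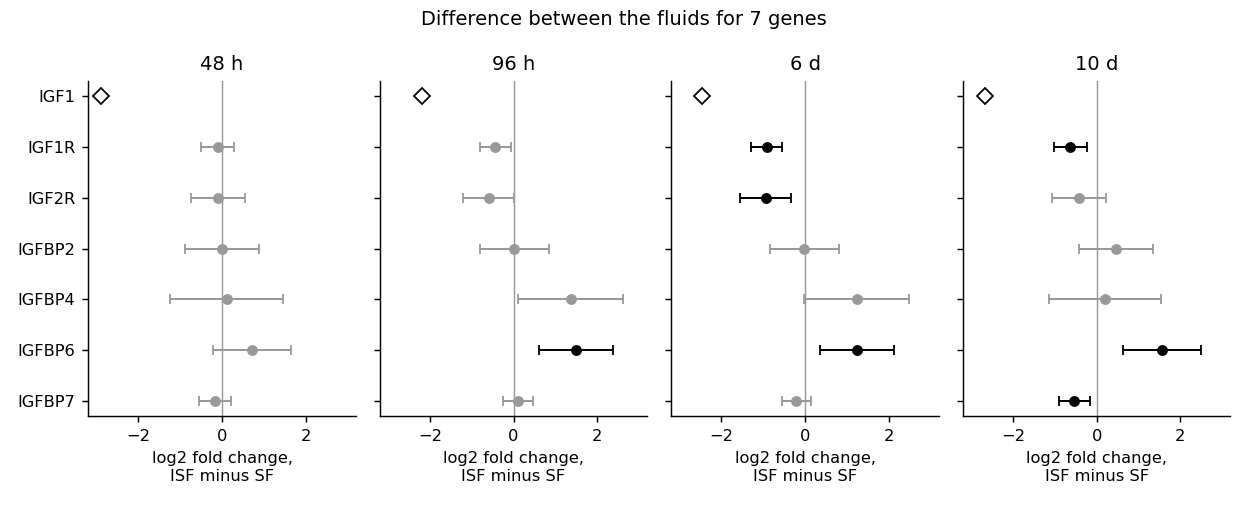
Log2 fold change of ISF against SF at 4 times for the 7 genes that passed the limit on low values; circles are limma estimates with 95% intervals, black where the FDR was under 0.05, and the open diamond is IGF1, shown without an interval because its difference chose the genes. IGFBP6 lies to the right of 0 and IGF1R to the left at each time, with calls for IGFBP6 from 96 hours on and for IGF1R at 6 and 10 days.

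The genes around the receptors were followed through a list of 55 genes, of which 43 could be tested. The list was chosen with earlier results of these data known, so its shares of called genes are a description. IGFBP1 was listed at 0 in every library, and PAPPA and PAPPA2, the proteases of IGF binding proteins, as well as IRS1, an adaptor of IGF1R, were below the limit. Between the fluids 3 of 43 were called at 48 hours (6.98%), 8 of 43 at 96 hours (18.6%), 22 of 43 at 6 days (51.2%) and 15 of 43 at 10 days (34.9%), where the shares of all genes tested were 1.68%, 10.5%, 30.2% and 20.8%. In ISF 0 were higher and 3 lower at 48 hours, 3 higher and 5 lower at 96 hours, 13 higher and 9 lower at 6 days, and 8 higher and 7 lower at 10 days. Over these times in order, 0.872%, 6.16%, 16.7% and 9.95% of all genes tested were higher in ISF, and 0.81%, 4.3%, 13.6% and 10.8% were lower. At 96 hours 4 of 43 (9.30%) were called once the Dealings and Dreamer ISF libraries were left out, 1 higher (PTPN1) and 3 lower (GRB10, FOXO1 and FOXO4), against 6.18% of all genes. The median log2 fold changes of the list were -0.15, -0.08, 0.12 and -0.03, beside -0.02, 0.00, 0.00 and -0.02 over all genes.

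Of the insulin receptor and growth hormone arm, 3 of 5 tested genes were lower and 1 higher in ISF at 10 days, when 10.8% of all genes were lower and 9.95% higher. STAT5B, which carries the growth hormone signal to the IGF1 gene in liver, was at 9.96 ± 1.24 GeTMM (SD, n = 7) in ISF and 24.0 ± 7.95 in SF, a difference of -1.15 ± 0.19 (log2 fold change ± SE; limma, FDR = 4.42e-06). GHR, the growth hormone receptor, was higher in ISF, at 9.09 ± 1.61 GeTMM against 5.24 ± 0.914 (0.69 ± 0.15, FDR = 0.000409). GHR was also called upward over each of the 4 intervals in ISF, and in SF from 0 to 48 hours, from 48 to 96 hours and from 6 to 10 days.

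Of the genes that bind or cleave the complexes of IGF and binding protein, STC2, an inhibitor of the protease PAPPA, was higher in ISF at 10 days, at 5.43 ± 3.91 GeTMM (SD, n = 7) against 1.19 ± 1.05 in SF (1.45 ± 0.34, FDR = 0.00122). HTRA1, a secreted serine protease known to cleave binding proteins, was higher in ISF at 96 hours, at 169 ± 66.2 GeTMM (n = 8) against 99.5 ± 23.2 (0.69 ± 0.23, limma, FDR = 0.0364). Without the Dealings and Dreamer ISF libraries the difference of HTRA1 was 0.52 (FDR = 0.2). At 6 days STC2 and HTRA1 were each called higher in ISF, whereas at 10 days HTRA1 was not called. Both are measured here as RNA, and no cleavage was measured.

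In the arm from PI3K to AKT and FOXO, FOXO1, a transcription factor that AKT holds out of the nucleus, was lower in ISF at 96 hours (-0.81, limma, FDR = 0.00451), 6 days (-1.03, FDR = 5.93e-05) and 10 days (-1.39, FDR = 2.16e-06), and without the Dealings and Dreamer ISF libraries its difference at 96 hours was -0.86 (FDR = 0.00954). At 10 days its levels were 1.32 to 3.32 GeTMM in ISF and 4.06 to 9.22 in SF, so the groups did not overlap. PIK3CD, the catalytic PI3K subunit of leukocytes, was lower at 6 days (-0.86, FDR = 0.00167) and 10 days (-1.41, FDR = 6.09e-06), with 11.2 to 29.6 GeTMM in ISF and 33.4 to 105 in SF at the later time. FOXO4 was lower at each time in culture, at 48 hours (-0.57, FDR = 0.00633), 96 hours (-0.45, FDR = 0.00791), 6 days (-0.79, FDR = 3.91e-07) and 10 days (-0.63, FDR = 0.000164), and at 96 hours also without the Dealings and Dreamer ISF libraries (-0.42, FDR = 0.0366). The level of the T cell genes given above was also lower in ISF at 10 days, and the part of lymphoid cells in the difference of FOXO1 and PIK3CD was not tested.

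Of the adaptors, GRB10, which restrains signalling from the IGF1 and insulin receptors, was lower in ISF at 96 hours (-0.93 ± 0.18, limma, FDR = 0.000246) and 6 days (-1.01 ± 0.18, FDR = 1.47e-05), with 5.14 to 11.8 GeTMM in ISF and 10.6 to 27.7 in SF at 6 days. Its difference at 96 hours was -0.96 (FDR = 0.000781) with the Dealings and Dreamer ISF libraries left out. PTPN1, a phosphatase that acts on the insulin receptor, was higher in ISF at 96 hours (0.49, FDR = 0.00526) and 6 days (0.78, FDR = 1.22e-06), where its levels were 150 to 283 GeTMM against 86.6 to 143.7 and did not overlap. The difference of PTPN1 at 96 hours was 0.47 (FDR = 0.022) with those libraries left out. PTPN1 was also called higher in ISF at 10 days. In the arm from RAS to ERK, 4 of 10 genes were higher and 0 lower in ISF at 6 days and again at 10 days, beside 16.7% and 9.95% of all genes that were higher at these times. MAP2K1, the kinase before ERK, was at 77.8 ± 7.45 GeTMM (SD, n = 8) in ISF and 47.5 ± 16.5 in SF at 6 days (0.84, FDR = 2.48e-05). Its levels were 67.25 to 91.39 GeTMM in ISF and 10.09 to 66.14 in SF. HRAS was higher at 96 hours (0.65, FDR = 0.0417) and 10 days (0.63, FDR = 0.0436), and without the Dealings and Dreamer ISF libraries its difference at 96 hours was 0.64 (FDR = 0.0944). IGF2BP2, which binds the IGF2 messenger, was higher in ISF at 6 days (1.21 ± 0.35, FDR = 0.00588), while IGF2 itself stayed at or under 0.0861 GeTMM there. The levels of IGF2BP2 were 37.9 to 109 GeTMM in ISF, with a mean of 79.8, and 1.01 to 66.1 in SF, with a mean of 44.4.

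The genes most like IGF1 over the 60 cultured libraries, by Pearson correlation of log2(GeTMM + 1), were DUSP22 (r = 0.869), ITM2B (0.858), TBXAS1 (0.850), SUSD4 (0.846) and CYSLTR1 (0.837). These libraries share horses, fluids and times, so the values are a description. A gene chosen for likeness to an IGF gene over them tends to share its gap between the fluids. The levels of such genes given below are therefore no separate result. TBXAS1, the thromboxane synthase, was at 28.8 ± 13.1 GeTMM (SD, n = 7) in SF and 3.73 ± 2.27 in ISF at 10 days. CYSLTR1, a receptor for cysteinyl leukotrienes, was at 10.1 ± 4.05 and 2.49 ± 0.757 GeTMM at that time. In ISF both means were below those of uncultured cells (23.5 ± 4.22 and 6.51 ± 1.58, n = 8), while the mean of IGF1 was above its own.

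IGF1R was most like INSR, the insulin receptor (r = 0.770), IGF2R most like TCF20 (0.879), IGFBP2 most like PTGES (0.877), IGFBP4 most like TMEM176B (0.899), IGFBP6 most like MSC (0.940) and IGFBP7 most like FGF7 (0.859). INSR was at 7.19 ± 1.49 GeTMM (SD, n = 8) at 0 hours, and at 2.92 ± 0.999 in SF and 0.685 ± 0.526 in ISF at 6 days. MSC, a transcription factor gene of the basic helix-loop-helix family, was at 0.574 ± 0.247 GeTMM (n = 8) at 0 hours, 45.5 ± 23.2 (n = 7) in SF and 168 ± 84.0 (n = 7) in ISF at 10 days. Among the IGF genes themselves, IGF1R and IGF2R were the pair most alike (r = 0.713 over the 60 libraries), and IGFBP4 ran opposite to both (-0.515 and -0.663). The 4 ISF libraries at 6 days with the highest IGFBP4, those of Catnip, Dealings, Dreamer and Flash, were also the 4 with the lowest IGF2R, at 8.23, 21.7, 32.7 and 18.9 GeTMM, a point singled out after the values were seen. IGF1 was not closely like any other of the 6 tested IGF genes, with r between -0.202 and 0.323.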

How the data were processed

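RNA was sequenced from 68 libraries of 8 horses in 9 groups. The authors mapped the reads to EquCab3.0 with STAR 2.7.2a, counted them per gene (Ensembl annotation), and deposited GeTMM values, which are like RPKM but scaled between libraries with TMM factors of edgeR. Their own tests used a count model, whose results were not used here. Genes were handled by Ensembl identifier, and depth was recovered from the steps of the GeTMM values. In these, 24065 of 24065 genes above 0 gave whole reads within 0.02 reads. In 2 libraries, SF of Lurie at 48 hours and SF of Moon at 6 days, nearly all recovered counts were even and were divided by 2. The latter, flagged below for IGF2R and IGFBP6, also had the highest worth of a read on a gene of 1 kilobase, 0.0979 GeTMM.

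Values were tested as log2(GeTMM + 1) with limma 3.58.1 (lmFit, eBayes with trend, R 4.3.3) over the 14570 genes at 0.5 GeTMM or more in at least 7 libraries, as a single fit of the 9 groups that left horse out. Calls are two-sided, with a Benjamini-Hochberg FDR below 0.05 across these genes. Horse pairs the cultures: the residual correlation between both libraries of a horse had a median of 0.207 to 0.455 per time, against -0.115 to -0.03 between horses, so fits with horse as a block were made as well.

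The text names the 10 IGF genes, the 3 highest and 3 lowest called pathway genes per comparison of the fluids with a mean of at least 5 GeTMM in 1 group, and the genes most correlated with each IGF gene. Some of the pathway genes under this rule, and 1 marker list, are not reported here. Members and lists were chosen with earlier results of these data known. The script was tested on simulated data. Coordinates and sequences are not given here. Alternatives were the pseudocount, the filter, the block, fits of the compared groups alone, leaving out each horse or single libraries, library weights and a fold limit, and, chosen after seeing the data, voom on recovered reads and a fit without the SF library of Lurie at 10 days.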

Additional observations from a re-analysis of the deposited data

Results flagged for a closer look

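In each of 63 groups of 7 or 8 libraries, 1 per tested IGF gene and group, the highest and lowest library were compared with the rest by Dixon's gap criterion, and 6 values stood apart; chance gives about 1 in 20 groups. Lurie had 12.7 GeTMM of IGF1R in ISF at 48 hours, where the other horses had 8.01 to 9.28. Moon had 20.7 GeTMM of IGF2R in SF at 6 days, against 57.5 to 115 in the others, and the same library had 60.9 GeTMM of IGFBP6, against 6.57 to 16.3. Lurie had 61.8 GeTMM of IGF2R in SF at 10 days, against 86.3 to 111, and the same library had 52.8 GeTMM of IGFBP2, against 0 to 2.17. Dealings had 0.0804 GeTMM of IGFBP2 in SF at 96 hours, against 0 to 0.0223, a level that rests on 4 reads. Of the 6, 4 thus fall on 2 SF libraries, those of Moon at 6 days and of Lurie at 10 days, and calls of IGF genes that change without them are given in the report. For the pathway genes no values without these libraries are given.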

How the results depend on the processing

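Each of 59 results was recomputed under up to 18 alternatives, giving 1058 values, and no called result changed its direction. Of the results for single genes, 669 values kept their side of the threshold, 58 lost and 29 gained a call, and the other 68 belong to the untested differences of IGF1 between the fluids, which moved by less than 1 residual SD. The counts of called IGF genes moved as follows. With horse as a replicate block, 2 in place of 1 were called between the fluids at 96 hours, 4 in place of 3 at 6 days, 3 in place of 2 in ISF from 48 to 96 hours and from 6 to 10 days, and 1 in place of 0 in SF from 48 to 96 hours; beside the calls named for IGF2R, IGFBP4 and IGFBP6 in the report, the block changed no other call. With the compared groups fitted alone, 1 was called between the fluids at 6 days and 2 at 10 days, and over the intervals in order 4, 2, 0 and 1 in ISF and 3, 2, 0 and 0 in SF. With a log2 fold change of at least 1 required, 1 was called at 6 days, at 10 days and from 0 to 48 hours in each fluid. A pseudocount of 0.1 gave 2 between the fluids at 6 days and at 10 days, 3 from 0 to 48 hours in each fluid, 0 in ISF from 96 hours to 6 days and 1 in SF from 48 to 96 hours. With no limit on low values IGF2 was added, giving 4 at 6 days and 3 from 0 to 48 hours in each fluid. Library weights gave 2 at 96 hours between the fluids, 3 in ISF from 48 to 96 hours and from 6 to 10 days, and 1 in SF from 48 to 96 hours, and voom on recovered reads gave 0 at 96 hours and 2 at 10 days between the fluids, 3 in SF from 0 to 48 hours and 0 from 96 hours to 6 days. It gave 2 in ISF from 0 to 48 hours, IGF1R and IGFBP2 in place of IGF1R and IGFBP6. With the Dealings and Dreamer ISF libraries left out, 0 were called between the fluids at 96 hours and 1 in ISF from 48 to 96 hours. With the Moon SF library at 6 days left out, 0 were called in SF from 96 hours to 6 days and 3 in ISF from 48 to 96 hours and from 6 to 10 days, and without the Lurie SF library at 10 days 0 from 6 to 10 days. Leaving out each horse in turn gave 0 to 1 calls between the fluids at 96 hours, 1 to 3 at 6 days and at 10 days. Over the intervals it gave 1 to 2, 2 to 3, 0 to 1 and 1 to 3 in ISF, and 2 to 2, 0 to 1, 0 to 1 and 0 to 1 in SF. Where fewer samples or groups entered a fit, its spread was estimated from fewer libraries; beyond that the cause was not tested. Depth limits IGF2, IGFBP3, IGFBP5, IGFBP7 and early IGFBP2, whose levels rest on few reads. With 7 or 8 horses per group and 1 well each, p values rest on the spread within groups, pooled over the 9 groups with horse left out. Group spreads differed, as for IGF2R, whose SD of log2(GeTMM + 1) was 0.217 at 0 hours and 1.12 in ISF at 6 days. The pooled spread can therefore understate that of the groups compared.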
